A study of Danio rerio with 4 samples.

Results

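Cilium and axoneme genes were followed in whole zebrafish embryos that were WT or labelled KDM5A-KO. The genes were taken by name from the deposited table: protein-coding genes whose lower-case symbol begins with dnah, dnai, dnal, dnaaf, cfap, rsph, tekt, ift and a digit or bbs and a digit, together with foxj1a. The rule found 68 of the 26812 genes of the table. By name stem alone, 47 of these were counted as motile axoneme genes, 20 as ciliary transport genes, and foxj1a as the regulator. All cfap genes were thus counted as motile, whatever their role. The motile genes comprised 11 dynein heavy chains, 7 dynein intermediate and light chains, 3 dynein assembly factors, 5 radial spoke genes, 4 tektins and 17 cfap genes. The transport genes comprised 12 subunits of intraflagellar transport and 8 bbs genes. GO terms of the table name a cilium, an axoneme or intraflagellar transport for 56 of the 68 members, and for 588 genes of the table in all. The members lie on 27 chromosomes or scaffolds.

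A cilium is a microtubule rod, the axoneme, inside a sheath of cell membrane. In motile cilia, outer and inner dynein arms slide the microtubule doublets against each other, radial spokes pass signals from the central pair to the arms, and tektins and many cfap proteins stabilise the doublets from within or tether them. Nearly every cilium, motile or primary, is built and maintained by intraflagellar transport, in which IFT-B carries cargo to the tip and IFT-A is needed for the way back, while the BBSome takes membrane proteins out of the cilium. Foxj1 is the forkhead factor that switches on genes of motile cilia. In the zebrafish embryo, motile cilia line the pronephric tubules and the floor plate and stand in the otic vesicle and olfactory placode, whereas the photoreceptor outer segment is a modified immotile cilium.

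Each of the 4 groups had 1 library of whole-embryo RNA: WT at 24 hpf, KDM5A-KO at 24 hpf, WT at 48 hpf and KDM5A-KO at 48 hpf. KDM5A-KO embryos were made with CRISPR/Cas9, described in the methods as yolk injection of guide RNA and Cas9 plasmid with pooled embryos, and in the labels as mating of KO fish, whose titles call these samples mo. No allele is named, and the library kit differs between the labels and the methods. The 4 columns of the table were read as K for KDM5A-KO, C for WT, 1 for 24 hpf and 2 for 48 hpf, an inference that no label spells out. The time reading was checked with 8 genes of the presomitic mesoderm, of which 8 were higher at 24 hpf in WT and in KDM5A-KO. KDM5A itself stood at 13.8 FPKM in WT and 20.3 in KDM5A-KO at 24 hpf, a ratio of 1.47 (95% interval 1.3 to 1.66), and at 18.1 and 16.3 FPKM at 48 hpf, a ratio of 0.902 (0.823 to 0.987). The mRNA of the targeted gene was therefore not lower at 24 hpf, and these values do not settle the reading of K and C. KDM5A-KO is used throughout for the libraries labelled so.

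The deposited unit, FPKM, counts the fragments of a gene relative to its length in kilobases and to the fragments of its library. The reads behind each value were recovered from the steps of the values, and the library totals were 7441797 (WT) and 14724748 (KDM5A-KO) at 24 hpf, and 15525056 (WT) and 15922314 (KDM5A-KO) at 48 hpf. The median member had 35, 123, 69 and 88.5 reads in these 4 libraries. FPKM ratios carry an exact 95% Clopper-Pearson interval from these reads, and a gene is called higher or lower beyond counting error when the interval lies wholly above or below 1. For log2 ratios, 1 was added to each FPKM before KDM5A-KO was divided by WT, which understates the change of low genes. With 1 library a group no difference has a replicate check, no p-value is given and the intervals cover counting error only. Ribosomal RNA genes took up 12.5% of reads in WT at 24 hpf and 0.341% to 0.555% in the other 3 libraries. These reads raise all KDM5A-KO to WT ratios at 24 hpf. Totals without them lowered log2 ratios taken without the added 1 FPKM by 0.18 there. A rescaling by the median ratio of 14596 genes (median-of-ratios) lowered the same ratios by 0.27 at 24 hpf and by 0.01 at 48 hpf. With 1 FPKM added the shifts are smaller, most of all for low genes. The member calls that the rescaling changed are given with each group. In bulk RNA of an embryo, fewer ciliated cells and less RNA per ciliated cell cannot be told apart.

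Motile axoneme genes were higher in KDM5A-KO than in WT at both times, with a median log2 ratio at 24 hpf that rescaling lowered from 0.34 to 0.18. Transport genes were higher in KDM5A-KO at 24 hpf, with a median log2 ratio that rescaling lowered from 0.38 to 0.19, and lower in KDM5A-KO at 48 hpf. The regulator foxj1a was higher at both times. The FPKM of the 47 motile genes summed to 95.7 in WT and 157 in KDM5A-KO at 24 hpf, then to 90.5 and 117 at 48 hpf. The 20 transport genes summed to 115 and 146 at 24 hpf, then to 138 and 113 at 48 hpf. These sums are as deposited, without rescaling. The balance of the 2 groups can be read inside each library, without any scaling between libraries. As a percentage of the transport sum of the same library, the motile sum was 83.4% in WT and 107% in KDM5A-KO at 24 hpf, then 65.5% and 103% at 48 hpf. Both KDM5A-KO libraries thus lay above both WT libraries. The abundant cfap20 and cfap36 made up a large part of the motile sum, and without them the percentages were 56.2%, 75.5%, 38.0% and 71.2% in the same order. The median motile gene was low in every library, at 1.04, 1.67, 0.712 and 1.28 FPKM, whereas the median transport gene was at 5.50, 7.29, 6.98 and 5.07 FPKM.

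**Figure D1:**
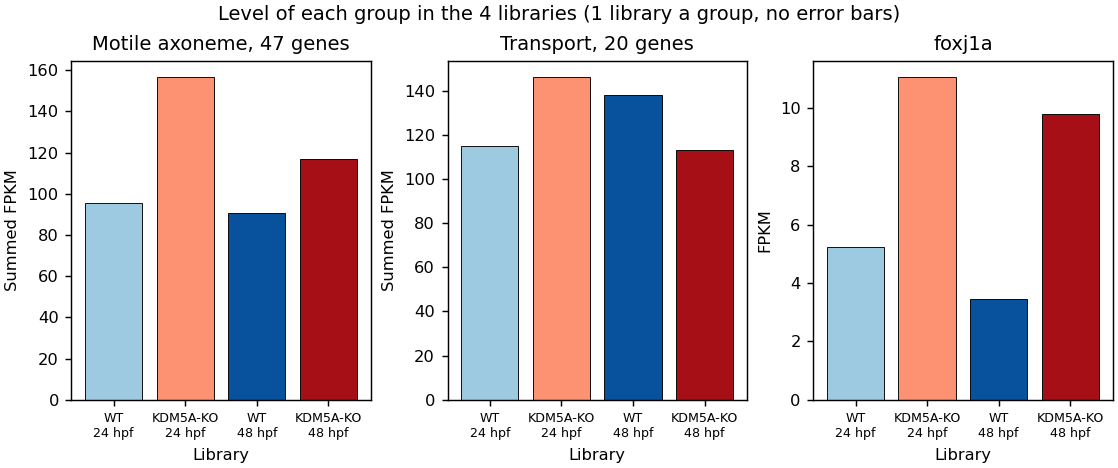
Bars give the summed FPKM of the 47 motile axoneme genes (left) and the 20 transport genes (middle), and the FPKM of foxj1a (right), in each of the 4 libraries, with 1 library a group and therefore no error bars. The motile sum and foxj1a are higher in KDM5A-KO at both times (157 against 95.7 and 117 against 90.5 for the motile sum). The transport sum is higher in KDM5A-KO at 24 hpf (146 against 115) and lower at 48 hpf (113 against 138). Values are as deposited. After median-of-ratios rescaling, 17 of the 47 motile genes (36.2%) and 2 of the 20 transport genes (10.0%) were higher beyond counting error at 24 hpf. The rescaled shares were 13.6% of all genes and 19.9% of those that reached 1 FPKM.

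The regulator foxj1a (ENSDARG00000101919) was at 5.22 FPKM in WT and 11.0 in KDM5A-KO at 24 hpf, and at 3.46 and 9.79 FPKM at 48 hpf. Both KDM5A-KO libraries were above both WT libraries. The ratio was 2.12 (95% interval 1.77 to 2.55) at 24 hpf, from 148 and 620 reads, and 2.83 (2.41 to 3.33) at 48 hpf, from 205 and 594 reads. On the log2 scale with 1 FPKM added these were 0.95 and 1.27, and the latter passed 2-fold. Set against the transport sum of its own library, foxj1a was at 4.54% in WT and 7.56% in KDM5A-KO at 24 hpf, and at 2.51% and 8.63% at 48 hpf. Its paralog foxj1b, which the name rule leaves out, was at 1.62 and 8.53 FPKM at 24 hpf, a ratio of 5.25 (3.56 to 8.04), and at 1.86 and 5.09 FPKM at 48 hpf, a ratio of 2.74 (2.06 to 3.67).

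Among the 47 motile axoneme genes, 42 were above 0 on the log2 scale at 24 hpf, with a median log2 ratio of 0.34, and 40 were above 0 at 48 hpf, with a median of 0.26. The median over all genes was 0.12 at 24 hpf and -0.01 at 48 hpf. At 24 hpf, 28 motile genes (59.6%) were higher beyond counting error and 1 was lower, against 28.6% of all genes higher and 7.31% lower. At 48 hpf, 25 (53.2%) were higher and 2 lower, against 20.2% of all genes higher and 25.4% lower. Genes with more reads pass such a call more easily, so the share was also taken over genes that reached 1 FPKM in either of the compared libraries, of which 42.1% were higher at 24 hpf and 28.0% at 48 hpf. Only 35 of the 47 motile genes reached an FPKM of 1 in any library. Of the rest, 3 (dnaaf3, dnai2a and tekt1) had no reads in at least 1 library. After median-of-ratios rescaling, 38 motile genes stayed above 0 at 24 hpf, the median was 0.18, and 17 (36.2%) were higher beyond counting error against 13.6% of all genes. At 48 hpf, 22 (46.8%) were higher after rescaling, against 19.7% of all genes. Of the 47, 18 (38.3%) were higher beyond counting error at both times, against 12.1% of all genes, and 9 (19.1%) were after rescaling, against 7.12%.

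Few members passed 2-fold on FPKM plus 1. At 24 hpf, 2 of the 68 members were at least 2-fold higher, cfap77 and rsph4a, and 0 were at least 2-fold lower, against 2.72% and 1.32% of all genes. At 48 hpf, 3 were at least 2-fold higher, rsph4a, dnai1.2 and foxj1a, and 0 were lower, against 2.56% and 3.49% of all genes. The share of members past 2-fold was thus near that of the table (2.94% and 4.41% higher), and nearly all members differed by less than 2-fold on this scale. When 0.1 FPKM rather than 1 was added, 14 members passed 2-fold upwards at 24 hpf and 11 at 48 hpf. The shares of all genes above are for 1 FPKM added. No share with 0.1 added is given here, so these counts cannot be set against the table.

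**Figure D2:**
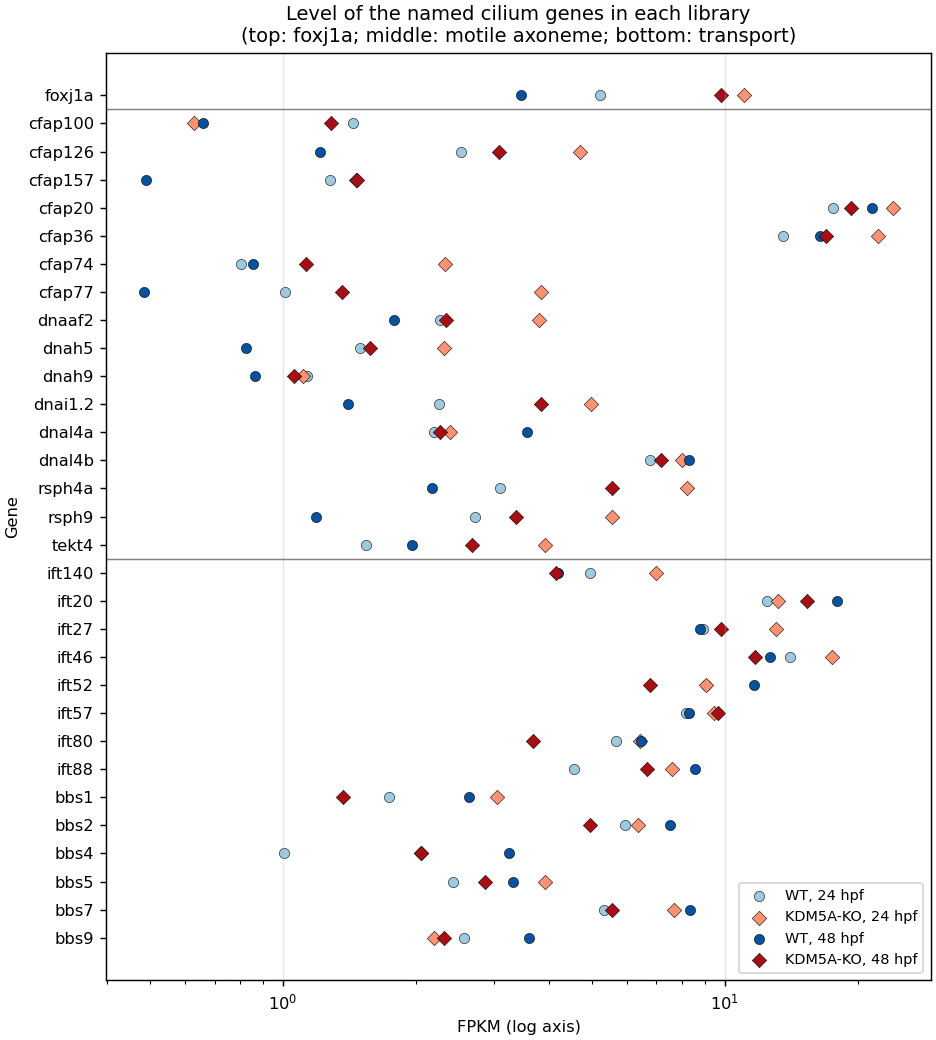
Each row is 1 named member and each point its FPKM (log axis) in 1 of the 4 libraries, with circles for WT, diamonds for KDM5A-KO, pale colours for 24 hpf and dark colours for 48 hpf. In foxj1a, rsph4a, rsph9, dnai1.2, cfap126 and tekt4 both diamonds lie to the right of both circles, and in bbs1, bbs2, ift52 and ift80 the dark diamond of KDM5A-KO at 48 hpf lies farthest left.

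Radial spoke genes had the highest median log2 ratio of the motile subfamilies at 48 hpf, 0.84, but not at 24 hpf, where it was 0.33 against 0.67 for cfap genes. All 5 were above 0 at both times, 2 of them higher beyond counting error at 24 hpf and 4 at 48 hpf, and their FPKM summed to 9.32 in WT and 18.6 in KDM5A-KO at 24 hpf, then 5.85 and 14.0 at 48 hpf. The spoke head gene rsph4a (ENSDARG00000067606) was at 3.10 and 8.23 FPKM at 24 hpf, a ratio of 2.65 (1.89 to 3.80), and at 2.18 and 5.56 FPKM at 48 hpf, a ratio of 2.55 (1.88 to 3.50). Another spoke head gene, rsph9, was at 2.72 and 5.55 FPKM at 24 hpf, a ratio of 2.04 (1.28 to 3.38), and at 1.19 and 3.37 FPKM at 48 hpf, a ratio of 2.83 (1.70 to 4.90). In both genes the lower KDM5A-KO library was above the higher WT library. For rsph3, a gene of the spoke stalk, the ratio was 1.28 (0.804 to 2.1) at 24 hpf and 2.44 (1.60 to 3.80) at 48 hpf. For rsph14 it was 1.52 (0.621 to 4.22) and 5.85 (2.01 to 23.2), the latter from 4 and 24 reads. The last of the 5, rsph10b, had intervals that held 1 at both times. Median-of-ratios rescaling changed none of the spoke calls.

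Dynein heavy chains, the motors of the arms, were low in all libraries, with medians of 0.662, 1.02, 0.508 and 0.763 FPKM, and their median log2 ratio at 24 hpf was 0.19 with 1 FPKM added and 0.61 without. Of the 11, 9 were above 0 at each time, and 7 were higher beyond counting error at 24 hpf and 6 at 48 hpf, with none lower. The outer arm chain dnah5 was at 1.49 and 2.31 FPKM at 24 hpf, a ratio of 1.55 (1.19 to 2.03), and at 0.827 and 1.58 FPKM at 48 hpf, a ratio of 1.91 (1.47 to 2.49). Another outer arm chain, dnah9, was at 1.13 and 1.11 FPKM at 24 hpf and at 0.865 and 1.06 at 48 hpf, and both intervals held 1 (0.671 to 1.44 and 0.885 to 1.70). Inner arm chains gave ratios of 1.55 for dnah1, 1.52 for dnah2, 1.69 for dnah7 and 2.01 for dnah12 at 24 hpf, and of 1.88, 1.65, 1.33 and 1.29 at 48 hpf, all beyond counting error as deposited. After rescaling, dnah3, dnah7 and dnah12 stayed higher at 24 hpf, and dnah1, dnah2, dnah5 and dnah7l at 48 hpf, and no heavy chain did so at both times. The symbol dnah11 is given to 2 gene IDs, ENSDARG00000077384 and ENSDARG00000094282. Only the latter was higher at 24 hpf (ratio 1.32, 1.08 to 1.63), and neither was at 48 hpf. Reads of near copies, such as dnah7 and dnah7l or dnah9 and dnah9l, may have been split between them.

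Among the 7 intermediate and light chains, dnai1.2 stood apart. This intermediate chain of the outer arm was at 2.25 and 4.97 FPKM at 24 hpf, a ratio of 2.21 (1.56 to 3.20), and at 1.4 and 3.84 FPKM at 48 hpf, a ratio of 2.74 (1.98 to 3.83). Both KDM5A-KO libraries were above both WT libraries. Its near copy dnai1.1 had no more than 2 reads in any library. For dnali1, a light intermediate chain of inner arms, the ratios were 1.74 (1.16 to 2.66) and 1.99 (1.23 to 3.27). The outer arm light chain dnal1 was higher at 24 hpf (1.53, 1.02 to 2.34), and its interval at 48 hpf, 0.854 to 1.69, held 1. After rescaling, the intervals of dnali1 (0.964 to 2.21) and dnal1 (0.849 to 1.94) at 24 hpf held 1 as well. The light chains dnal4a and dnal4b went another way. Levels of dnal4a were 2.20 and 2.39 FPKM at 24 hpf, then 3.57 and 2.27 at 48 hpf, where the ratio of 0.636 (0.469 to 0.858) lay below 1. The most abundant of the 7, dnal4b, was at 6.78 and 8.02 FPKM at 24 hpf and 8.28 and 7.18 at 48 hpf, with intervals that held 1.

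The dynein assembly factors act in the cytoplasm, where the arms are put together before transport. The level of dnaaf2 was 2.26 and 3.80 FPKM at 24 hpf, a ratio of 1.68 (1.14 to 2.54), and 1.79 and 2.33 at 48 hpf, with an interval of 0.912 to 1.88, and after rescaling the interval at 24 hpf, 0.942 to 2.11, also held 1. For dnaaf1 the ratio was 2.82 (1.51 to 5.73) at 24 hpf and 2.04 (1.19 to 3.62) at 48 hpf. The third, dnaaf3, had no more than 1 read in any library.

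Tektins are filament proteins of the doublet. The most abundant, tekt4, was at 1.54 and 3.92 FPKM at 24 hpf, a ratio of 2.55 (1.66 to 4.04), and at 1.96 and 2.68 FPKM at 48 hpf, where the interval of 0.996 to 1.89 just held 1. For tekt2 the ratio at 24 hpf was 3.23 (1.25 to 10.6). At 48 hpf, tekt1 was higher (3.32, 1.17 to 11.5) and tekt3 lower (0.244, 0.0441 to 0.903), from 5 and 17 reads and from 12 and 3 reads. These were among the thinnest calls of the set.

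Of the 17 cfap genes, 16 were above 0 at 24 hpf and 16 at 48 hpf. Beyond counting error, 12 were higher and 1 lower at 24 hpf, and 11 were higher and 0 lower at 48 hpf. The doublet gene cfap77 had the largest log2 ratio of all members at 24 hpf, 1.26, and was at 1.01 and 3.83 FPKM at 24 hpf (ratio 3.79, 1.81 to 9.18) and 0.484 and 1.36 FPKM at 48 hpf (2.80, 1.21 to 7.25). Its reads were few, 8 and 60 at 24 hpf and 8 and 23 at 48 hpf. Another doublet gene, cfap126, also known as Flattop, was at 2.53 and 4.69 FPKM at 24 hpf, a ratio of 1.85 (1.25 to 2.81), and at 1.21 and 3.08 FPKM at 48 hpf, a ratio of 2.54 (1.68 to 3.92). The central pair gene cfap74 was at 0.802 and 2.33 FPKM at 24 hpf (2.90, 2.02 to 4.28) and at 0.857 and 1.12 at 48 hpf, where the interval of 0.970 to 1.78 held 1. The reverse held for cfap157, with a ratio of 1.15 (0.607 to 2.26) at 24 hpf and 3.01 (1.53 to 6.33) at 48 hpf. For cfap52 and cfap45, which lie inside the doublet, the ratios were 2.13 and 1.32 at 24 hpf and 1.76 and 1.5 at 48 hpf, all beyond counting error as deposited. After rescaling, 8 cfap genes were higher and 1 lower at 24 hpf. The intervals there of cfap45 (0.857 to 1.4), cfap20 (0.924 to 1.39), cfap43 (0.952 to 2.04) and cfap73 (0.859 to 5.29) held 1. At 48 hpf 10 were higher after rescaling, and the interval of cfap53 (0.999 to 1.90) held 1.

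The exceptions among the cfap genes were cfap100, cfap20 and cfap36. A modifier of inner arms in Chlamydomonas, cfap100 (ENSDARG00000038538) was the only member lower beyond counting error at 24 hpf, at 1.44 FPKM in WT and 0.627 in KDM5A-KO (ratio 0.436, 0.223 to 0.845), and was higher at 48 hpf, at 0.658 and 1.28 FPKM (1.95, 1.13 to 3.47). It had between 19 and 42 reads a library. A second ID written in capitals, CFAP100 (ENSDARG00000090342), is not among the members and had 1 and 19 reads at 24 hpf, so that the division of reads between the 2 IDs is uncertain. The most abundant motile member, cfap20, which sits at the inner junction of the doublet, was at 17.6 and 24.0 FPKM at 24 hpf (1.37, 1.11 to 1.68) and at 21.5 and 19.3 at 48 hpf (0.896, 0.765 to 1.05). The level of cfap36 was 13.5 and 22.2 FPKM at 24 hpf (1.64, 1.35 to 2.00), then 16.5 and 16.9 at 48 hpf (1.03, 0.882 to 1.2). Neither of these abundant genes differed beyond counting error at 48 hpf.

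Transport genes turned between the times. At 24 hpf, 19 of 20 were above 0, with a median log2 ratio of 0.38, and 11 (55.0%) were higher beyond counting error and 0 lower. Over all genes, 64.6% were above 0 and 28.6% higher beyond counting error. Among those that reached 1 FPKM the shares were 71.6% and 42.1%. At 48 hpf, 3 of 20 were above 0, the median was -0.26, and 0 were higher and 11 (55.0%) lower, against 25.4% of all genes lower and 34.4% of those that reached 1 FPKM. All 20 reached an FPKM of 1 in at least 1 library. The calls at 24 hpf depended on the scaling: after median-of-ratios rescaling 14 of 20 were above 0 with a median of 0.19, 2 were higher beyond counting error (ift88 and bbs4) and 1 lower (bbs9), and the 10.0% higher lay below the 13.6% of all genes. Those at 48 hpf did not, with 17 of 20 below 0 and 12 lower beyond counting error after the same rescaling.

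Among IFT-B subunits, all 11 were above 0 at 24 hpf and 2 at 48 hpf, ift27 and ift57, and 5 were lower beyond counting error at 48 hpf. The core subunit ift52 (ENSDARG00000045025) was at 9.05 and 9.07 FPKM at 24 hpf, a ratio of 1.00 (0.811 to 1.25), and at 11.6 and 6.76 FPKM at 48 hpf, a ratio of 0.581 (0.488 to 0.691). Likewise ift80 was at 5.66 and 6.44 FPKM at 24 hpf and at 6.46 and 3.69 at 48 hpf, with ratios of 1.14 (0.923 to 1.41) and 0.571 (0.474 to 0.688). In both genes the KDM5A-KO library at 48 hpf was the lowest of the 4. The core subunit ift88, at 4.55 and 7.61 FPKM at 24 hpf and 8.55 and 6.66 at 48 hpf, was higher at 24 hpf (1.67, 1.34 to 2.1) and lower at 48 hpf (0.780, 0.673 to 0.902). As deposited, the same was seen for ift172 (1.39, then 0.884) and ift81 (1.41, then 0.739), whose intervals at 24 hpf held 1 after rescaling (0.993 to 1.34 and 0.903 to 1.53). The highest levels were those of ift20, a subunit also found at the Golgi, with 12.5, 13.2, 18.0 and 15.4 FPKM, and ift46, with 14.1, 17.4, 12.7 and 11.7 FPKM. For both, the interval at 48 hpf held 1 as deposited, but after rescaling ift20 was lower there (0.849, 0.722 to 0.997). For ift27, a small GTPase of the complex, the ratios were 1.46 (1.07 to 2.02) and 1.12 (0.865 to 1.45), and for ift57 1.15 (0.903 to 1.48) and 1.16 (0.961 to 1.41). The sole IFT-A member, ift140, was at 4.95 and 6.98 FPKM at 24 hpf (1.41, 1.19 to 1.68) and at 4.19 and 4.14 at 48 hpf (0.987, 0.843 to 1.16). After rescaling, ift88 was the only one of these 12 genes higher beyond counting error at 24 hpf, and ift20, ift52, ift57 and ift80 were below 0.

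The bbs genes showed the turn most clearly, with 7 of 8 above 0 at 24 hpf and 1 of 8 at 48 hpf, where 6 were lower beyond counting error. Their FPKM summed to 20.7 in WT and 28.0 in KDM5A-KO at 24 hpf, then 31.3 and 21.1 at 48 hpf. The BBSome subunit bbs1 was at 1.73 and 3.06 FPKM at 24 hpf, a ratio of 1.76 (1.2 to 2.64), and at 2.64 and 1.37 FPKM at 48 hpf, a ratio of 0.518 (0.371 to 0.717), the lowest ratio among transport genes. For bbs4 the values were 1.00 and 2.05 FPKM at 24 hpf (2.05, 1.23 to 3.58) and 3.24 and 2.05 at 48 hpf (0.632, 0.474 to 0.840). For bbs7 they were 5.33 and 7.67 at 24 hpf (1.44, 1.17 to 1.79) and 8.35 and 5.57 at 48 hpf (0.667, 0.568 to 0.781). Both KDM5A-KO libraries thus fell between the WT library at 24 hpf and the WT library at 48 hpf for bbs4 and bbs7. Other BBSome subunits, bbs2 and bbs9, were not higher at 24 hpf (1.07, 0.852 to 1.35, and 0.856, 0.619 to 1.19) and were lower at 48 hpf (0.660, 0.549 to 0.791, and 0.643, 0.506 to 0.814). For bbs5 the ratio was 1.61 (1.03 to 2.58) at 24 hpf and 0.861 (0.612 to 1.21) at 48 hpf. Of the chaperonin-like genes that help to assemble the BBSome, bbs10 was lower at 48 hpf (0.579, 0.377 to 0.878), and bbs12 was at 0.685 and 0.834 FPKM there, an interval of 0.747 to 2.00. After rescaling, bbs4 was the only bbs gene higher beyond counting error at 24 hpf, bbs9 was lower (0.709, 0.513 to 0.987), and the intervals of bbs1 (0.996 to 2.19), bbs5 (0.857 to 2.14) and bbs7 (0.966 to 1.48) held 1.

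**Figure D3:**
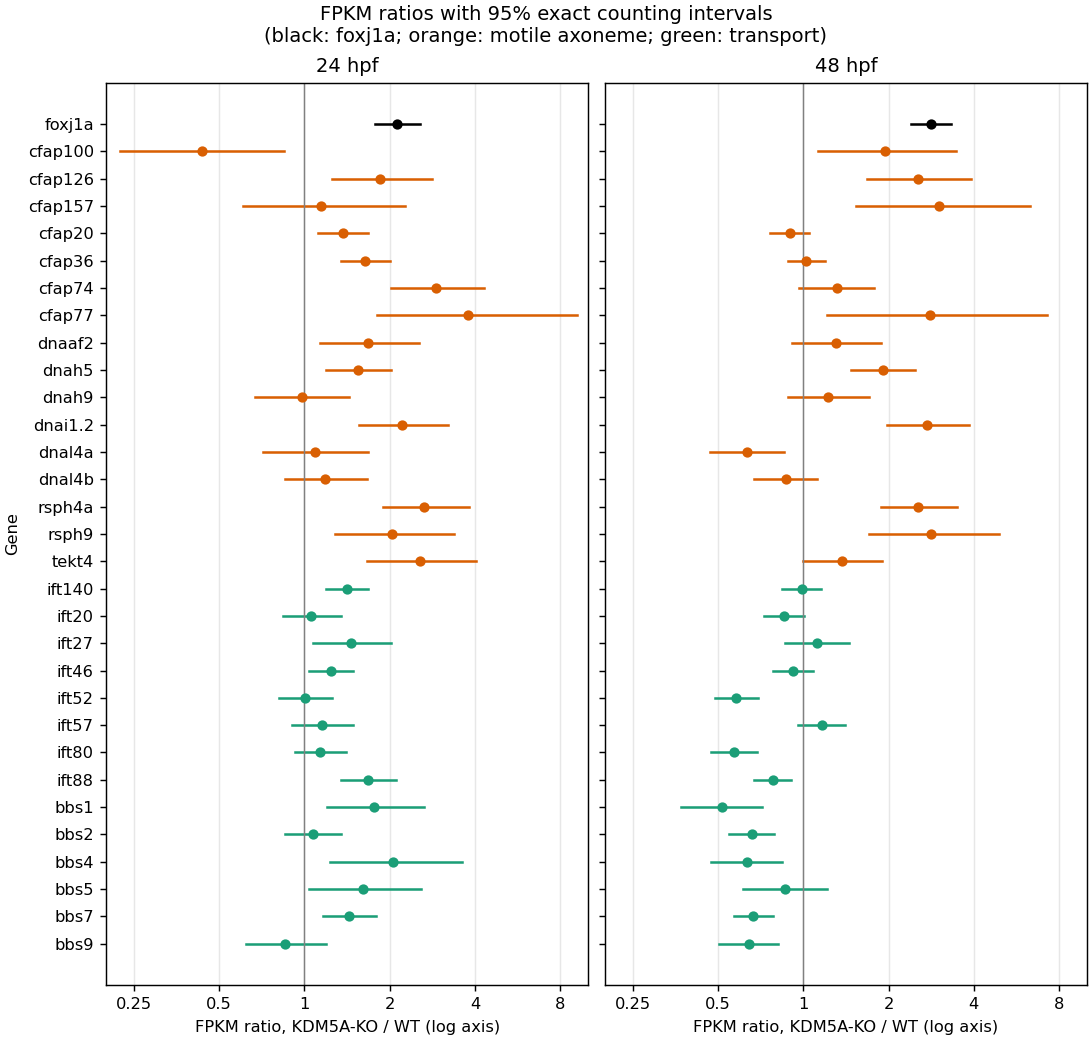
Points are FPKM ratios of KDM5A-KO to WT (log axis) at 24 hpf (left) and 48 hpf (right) for the named members, and bars are exact 95% intervals that cover counting error only. At 48 hpf the orange motile genes lie mostly right of 1, up to 3.01 for cfap157, while ift52, ift80, ift88, bbs1, bbs2, bbs4, bbs7 and bbs9 lie wholly left of 1, down to 0.518 for bbs1.

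The 2 KDM5A-KO to WT ratios of each gene come from different libraries and were set side by side. Of 47 motile genes, 36 (76.6%) were above 0 at both times, against 3 of 20 transport genes (15%) and 32.1% of all genes. Of the 20, 16 (80.0%) were above 0 at 24 hpf and below 0 at 48 hpf, against 30.4% of all genes. Beyond counting error, 6 transport genes (bbs1, bbs4, bbs7, ift172, ift81 and ift88) were higher at 24 hpf and lower at 48 hpf, as were 0 motile genes and 5.79% of all genes. After rescaling, 2 of the 6 (bbs4 and ift88) and 1.91% of all genes were. The Spearman correlation between the log2 ratios at the 2 times was 0.50 over the 47 motile genes, 0.17 over the 20 transport genes and 0.27 over all 26812 genes, which share the depth and composition of the same 4 libraries. The added 1 FPKM draws the ratios of low genes towards 0 at both times. Only 35 of the 47 motile genes reached 1 FPKM in any library, against all 20 transport genes. How far this shaped the correlations was not tested.

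**Figure D4:**
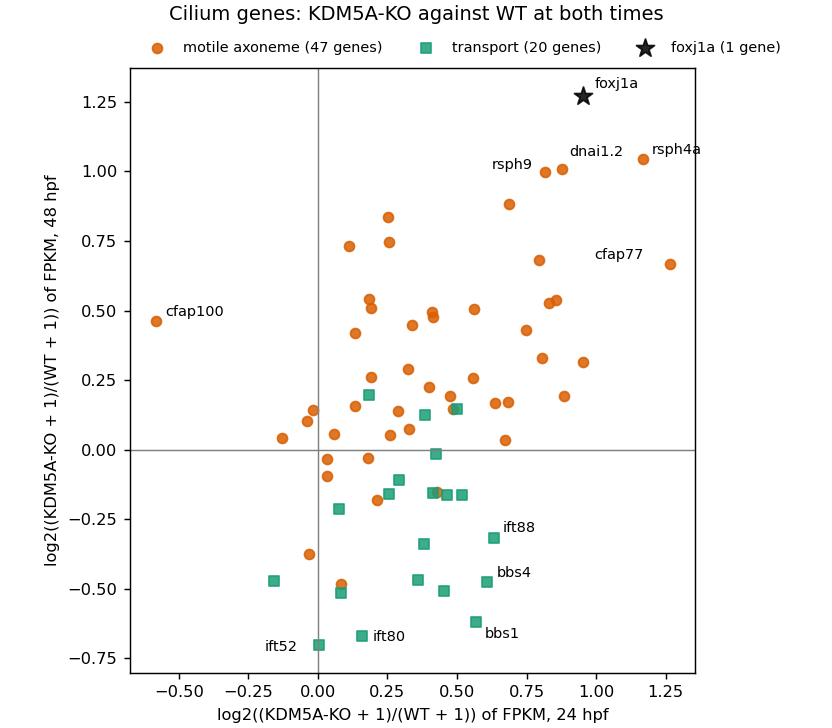
Each point is 1 of the 68 members, placed by its log2 ratio of KDM5A-KO to WT (FPKM plus 1) at 24 hpf (x axis) and at 48 hpf (y axis), with motile axoneme genes in orange, transport genes in green and foxj1a as a star. Motile genes lie mostly in the upper right quadrant (36 of 47), and transport genes mostly in the lower right (16 of 20), as deposited. Right of 0, whatever their place at 48 hpf, lay 19 of the 20 transport genes as deposited and 14 after rescaling.

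Change with age was compared inside each genotype. These comparisons reuse the libraries above, so the values are given for description. In WT, the motile genes were lower at 48 hpf than at 24 hpf, with 32 of 47 below 0, a median log2 ratio of -0.13, 14 lower beyond counting error and 2 higher (dnah3 and dnal4a). As deposited, the transport genes were higher at 48 hpf, with 14 of 20 above 0, a median of 0.33, 11 higher beyond counting error and 0 lower. Over all genes 31.2% were higher and 18.6% lower in WT. Among those that reached 1 FPKM, 41.7% were higher and 25.5% lower. After median-of-ratios rescaling, 7 transport genes (35%) were higher in WT and 1 lower. The rescaled shares of higher genes were 27.7% of all genes and 37.2% of those that reached 1 FPKM. The transport share thus lay between these shares. With totals without rRNA reads, 6 transport genes were higher in WT and 2 lower. In KDM5A-KO, the motile genes were also lower at 48 hpf, with 37 of 47 below 0, a median of -0.23, 23 lower and 2 higher (cfap100 and tekt1). The transport genes were lower there, with 17 of 20 below 0, a median of -0.33, 12 lower and 0 higher, against 29.4% of all genes lower and 22.4% higher. After median-of-ratios rescaling, 19 motile genes (40.4%) and 8 transport genes (40.0%) were lower in KDM5A-KO. The rescaled shares were 22.9% of all genes and 31.4% of those that reached 1 FPKM. As deposited, bbs4 was 3.23 times (1.99 to 5.54) its 24 hpf level in WT at 48 hpf and 0.997 times (0.722 to 1.38) in KDM5A-KO. For ift88 these ratios were 1.88 (1.51 to 2.34) and 0.875 (0.751 to 1.02). For foxj1a they were 0.664 (0.535 to 0.826) and 0.886 (0.790 to 0.993).

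Ciliary genes with other names were counted from lists. Beyond counting error, 28.6% of all genes were higher at 24 hpf, and 20.2% were higher and 25.4% lower at 48 hpf. The shares were 42.1%, 28.0% and 34.4% among genes that reached 1 FPKM. Of 30 further motility genes, 30 were above 0 at 24 hpf, with a median log2 ratio of 0.70, 26 higher beyond counting error and 0 lower, and 24 were above 0 at 48 hpf, with a median of 0.41, 17 higher and 1 lower (spag1a). After median-of-ratios rescaling the median at 24 hpf was 0.51, with 18 (60.0%) higher and 0 lower. The rescaled shares of higher genes were 13.6% of all genes and 19.9% of those that reached 1 FPKM. The nexin-dynein gene drc1 was at 2.48 and 7.58 FPKM at 24 hpf (3.06, 2.21 to 4.31) and at 1.54 and 3.19 at 48 hpf (2.07, 1.5 to 2.89). The outer arm docking gene ccdc151 gave ratios of 3.07 (2.04 to 4.80) and 2.37 (1.64 to 3.48). Of 22 further transport genes, 19 were above 0 at 24 hpf, with a median of 0.21, 8 higher and 0 lower, a share near the 28.6% of all genes and below the 42.1% of those that reached 1 FPKM. At 48 hpf 6 were above 0, with a median of -0.25, 2 higher and 13 lower. The IFT-B gene hspb11, also known as IFT25, reached 56.0 FPKM in KDM5A-KO at 48 hpf against 10.9 in WT (5.15, 4.38 to 6.08), outside the range of 8.64 to 10.9 of the other 3 libraries. The kinesin-II motor gene kif3a was at 20.2 and 13.7 FPKM at 48 hpf (0.679, 0.617 to 0.748). Of 21 genes of the transition zone, the gate at the base of the cilium, 20 were above 0 at 24 hpf (median 0.13, 5 higher, 0 lower) and 4 at 48 hpf (median -0.27, 2 higher, 10 lower), and cep290 was at 9.88 and 6.64 FPKM at 48 hpf (0.672, 0.614 to 0.736). The 5 higher transition zone genes at 24 hpf were a smaller share than that of all genes. For the further transport genes and the transition zone the median at 24 hpf turned to -0.03 and -0.07 after rescaling.

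Markers of ciliated tissues were counted in the same way, and their part in the results was not tested. Over all genes, 28.6% were higher beyond counting error at 24 hpf and 20.2% at 48 hpf. Among those that reached 1 FPKM these shares were 42.1% and 28.0%. Lower beyond counting error were 7.31% of all genes at 24 hpf and 25.4% at 48 hpf. The lower shares were 10.1% and 34.4% among those that reached 1 FPKM. Of 7 pronephros genes, 5 were higher beyond counting error and 0 lower at 24 hpf, and 5 were higher and 2 lower at 48 hpf. Their FPKM summed to 57.7 in WT and 82.1 in KDM5A-KO at 24 hpf, then 49.5 and 60.1 at 48 hpf. The tubule cadherin gene cdh17 was at 12.8 and 24.3 FPKM at 24 hpf and at 5.61 and 11.9 at 48 hpf. The 2 lower genes at 48 hpf were pax2a (0.625, 0.566 to 0.690) and pax8 (0.791, 0.681 to 0.920). Of 6 floor plate genes, 4 were higher and 0 lower at each time, with sums of 43.4 and 59.4, and of 47.4 and 63.4. Of 5 otic genes, 4 were higher and 1 lower at 24 hpf (sums of 36.3 and 59.3), and 5 were higher at 48 hpf (21.4 and 38.2). Nearly all of the rise of the otic sum at 24 hpf was oc90 (15.8 and 38.6 FPKM). The lower otic gene was otomp (9.06 and 5.07 FPKM). Of 4 genes of cerebrospinal fluid-contacting neurons, 1 was lower at 24 hpf (sums of 10.3 and 9.02) and 2 were higher at 48 hpf (8.92 and 13.3). As deposited, most pronephros, floor plate and otic markers were higher beyond counting error at each time. Those of the fluid-contacting neurons at 24 hpf and of the olfactory placode at each time were not. After median-of-ratios rescaling, 3 pronephros, 2 floor plate and 2 otic genes stayed higher beyond counting error at 24 hpf, while 1 pronephros and 1 otic gene were lower. The rescaled shares there were 13.6% of all genes higher and 16.6% lower. Among those that reached 1 FPKM, 19.9% were higher and 23.6% lower. The 5 olfactory genes were near 0 at 24 hpf (sums of 1.27 and 1.64, with ompb at 0 in WT and ompa at 0 in KDM5A-KO), and 3 were lower and 0 higher at 48 hpf (7.44 and 2.83).

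Photoreceptor markers were mostly lower in KDM5A-KO at 48 hpf. Of their 7 gene IDs, 1 was higher and 0 lower at 24 hpf, and 0 were higher and 4 lower at 48 hpf. At 48 hpf, 25.4% of all genes were lower beyond counting error, and 34.4% of those that reached 1 FPKM. The FPKM summed to 1.93 in WT and 3.42 in KDM5A-KO at 24 hpf, then 58.6 and 6.77 at 48 hpf, where opn1sw1 was at 0 in KDM5A-KO. The photoreceptor factor crx (ENSDARG00000011989) was at 42.3 and 2.64 FPKM at 48 hpf, a ratio of 0.0623 (0.0504 to 0.0763), and rcvrna, a recoverin gene, was at 10.5 and 1.55 FPKM. Together crx and rcvrna made up most of the WT sum at 48 hpf. Of the other markers there, gnat2 was at 0.897 and 1.07 FPKM (1.19, 0.750 to 1.91). The interval of pde6h (0.634, 0.290 to 1.34) also held 1, while that of gnat1 (0.355, 0.187 to 0.641) lay below 1. A link to the transport genes was not tested.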

How the data were processed

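Total RNA of whole embryos was sequenced in 4 libraries, 1 a group. The authors filtered the reads, aligned them with HISAT2 2.1.0 and quantified genes with StringTie 1.3.3b, and deposited FPKM values for 26812 Ensembl genes with gene names, biotypes and GO terms (versions from the submitters' processing notes). The same notes name the mouse build mm10 for these zebrafish libraries, and the zebrafish build is not given in the sources used here, so no coordinates are printed. Sequences were not used here, and 1 photoreceptor marker is not reported here. Members and lists were chosen with earlier results of these data known.

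Reads were recovered for 100% of genes, each taken as the least whole number that fits the FPKM, with totals read from single-exon genes. Over a library they came to 98.2% to 98.5% of its total. For some genes a multiple would serve as well, so intervals are wide rather than narrow. Because the unit is FPKM with 1 library a group, no count model was run. Log2 ratios used a pseudocount of 1 FPKM and a 2-fold threshold. Ratio intervals are exact 95% Clopper-Pearson intervals of recovered reads. The procedure was tested on simulated data. The tools were Python 3.11.15 with pandas 2.3.3, scipy 1.17.1, matplotlib 3.10.9 and numpy 2.4.6.

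The 31 named members are foxj1a, the 4 highest and 4 lowest log2 ratios of each part at each time among genes with an FPKM of at least 1, and the most abundant member of each subfamily. Other members were named after their values were seen, as were the genes named from the pathway and marker lists. Alternatives were median-of-ratios rescaling, totals without the reads of 234 rRNA genes (rRNA biotypes, or within 15 kb of a 5.8S gene), a pseudocount of 0.1, an FPKM of at least 1 and a 3-fold threshold. The sums without cfap20 and cfap36 and the named members under other scalings were added after the data were seen.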

Additional observations from a re-analysis of the deposited data

Results flagged for a closer look

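The KDM5A-KO to WT difference had opposite signs at 24 and 48 hpf for several members, each beyond counting error at both times, and with 1 library a group the difference between the times was not tested. From 24 to 48 hpf, the log2 ratio changed by -1.19 for bbs1, -1.08 for bbs4, -0.96 for bbs7 and -0.95 for ift88, all transport genes that were higher in KDM5A-KO at 24 hpf and lower at 48 hpf. For cfap100, a motile gene, it was 1.04, from lower to higher. The median log2 ratio of the 20 transport genes changed by -0.65 between the times as deposited. Rescaled by median-of-ratios, that median was 0.19 at 24 hpf and -0.28 at 48 hpf. As deposited, the median over genes that reached 1 FPKM was 0.22 at 24 hpf and -0.05 at 48 hpf. After median-of-ratios rescaling, only bbs4, ift88 and cfap100 of these 5 genes still differed beyond counting error at 24 hpf.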

How the results depend on the processing

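Each group had 1 library, so that no library could be left out. No paired analysis was possible because there was a single library per condition and no shared replicate number. The promoter motif search was not run, because promoter sequences were not used here. WT at 24 hpf was the shallowest library and held the most rRNA reads, which touches every ratio that includes it. Motile genes were low, and 12 members stayed below 1 FPKM in all libraries. No median of the motile or transport members changed sign under any alternative. For KDM5A-KO against WT at 24 hpf, the motile median (0.34) was 0.18 after median-of-ratios rescaling, 0.24 with totals without rRNA reads, 0.60 with a pseudocount of 0.1 and 0.49 with an FPKM of at least 1. The transport median (0.38) was 0.19, 0.26 and 0.48 under the former 3. At 48 hpf the motile median (0.26) was 0.46 with the pseudocount of 0.1 and 0.45 with the filter. For 48 against 24 hpf in WT, the motile median (-0.13) was -0.25 with the pseudocount of 0.1 and -0.36 with the filter, and the transport median (0.33) was 0.25 after rescaling and 0.18 without rRNA reads. In KDM5A-KO the motile median (-0.23) was -0.14 after rescaling, -0.37 with the pseudocount of 0.1 and -0.36 with the filter, and the transport median (-0.33) was -0.22 after rescaling and -0.41 with the pseudocount of 0.1. Members at least 2-fold higher at 24 hpf numbered 2, against 1 after rescaling, 14 with the pseudocount of 0.1 and 0 at 3-fold. Those at 48 hpf numbered 3, against 11 and 0 under the last 2. Members at least 2-fold lower numbered 0 at each time, and 1 at each time with the pseudocount of 0.1. No share of all genes is given beside the counts with the pseudocount of 0.1. Of the log2 ratios of named members at both times, 1 of 62 moved by more than the counting error (from the middle to the end of its interval) with the pseudocount of 0.1 and 0 with the rescalings. At 24 hpf, 8 of the 31 named members changed sign after median-of-ratios rescaling (bbs2, cfap157, dnal4a, dnal4b, ift20, ift52, ift57 and ift80) and 4 without rRNA reads (bbs2, dnal4a, ift20 and ift52), 0 of them called as deposited, and none changed sign at 48 hpf.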

Other observations

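The table writes 10 further genes with the same name stems in capitals, which the lower-case rule leaves out. Of these 10, 9 were above 0 at 24 hpf (median log2 ratio 0.46, 7 higher beyond counting error, 0 lower) and 10 at 48 hpf (median 0.41, 9 higher, 0 lower). Of all genes, 64.6% were above 0 and 28.6% higher at 24 hpf, then 43.8% and 20.2% at 48 hpf. Among those that reached 1 FPKM, 42.1% were higher at 24 hpf and 28.0% at 48 hpf. The values of these 10 genes are as deposited, without rescaling. CFAP70 was at 0.924 FPKM in WT and 3.94 in KDM5A-KO at 24 hpf (ratio 4.26, 95% interval 2.76 to 6.89) and at 0.443 and 2.03 FPKM at 48 hpf (4.58, 2.90 to 7.53). The spoke gene RSPH1 gave ratios of 1.70 (1.22 to 2.39) and 1.84 (1.43 to 2.38). Both genes were higher in both KDM5A-KO libraries than in both WT libraries.

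Of the factors that act with Foxj1, rfx2 was at 12.2 and 18.7 FPKM at 24 hpf (1.54, 1.37 to 1.74) and at 10.8 and 13.2 at 48 hpf (1.22, 1.10 to 1.35). In contrast rfx3 was at 7.10 and 5.38 FPKM at 24 hpf (0.758, 0.560 to 1.03) and at 13.2 and 9.02 at 48 hpf (0.683, 0.567 to 0.821). For rfx4 the ratio was 0.909 (0.811 to 1.02) at 24 hpf and 1.54 (1.39 to 1.72) at 48 hpf. After median-of-ratios rescaling, rfx3 (0.628, 0.464 to 0.855) and rfx4 (0.753, 0.672 to 0.844) were lower beyond counting error at 24 hpf, and rfx2 stayed higher (1.28, 1.13 to 1.44). Over the 532 other genes with a GO term that names a cilium or axoneme, the median log2 ratio was 0.15 at 24 hpf and -0.07 at 48 hpf, and -0.01 at 24 hpf after median-of-ratios rescaling.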
